A study of Mus musculus with 4 samples.

Results

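The genes described here copy the genome and supply the building blocks for doing so: 58 genes of origin licensing and the replicative helicase, of the polymerases and the replication fork, of nucleotide synthesis, and of chromatin assembly behind the fork. They were chosen by name. Each was read from the array row whose annotation gave that gene as its only symbol, and from the brightest such row where a gene had several. A row was found for 57 of the 58 genes, the exception being Impdh2, among 22180 named genes on the array. The RNA came from primary keratinocytes, the epithelial cells of the epidermis, of 1-week-old C57BL/6J mice. The mice labelled Glut1-deficient carried floxed Glut1 alleles and Cre under the K14 (keratin 14) promoter of basal keratinocytes, and the WT mice carried the floxed Glut1 alleles without Cre. Slc2a1 is the gene of Glut1, which carries glucose into cells. Each genotype had 4 mice; cells of both were grown in the same low-calcium medium with EGF, insulin, hydrocortisone and pituitary extract, reseeded at equal number after 3 days and harvested 1 day later. Plates of a genotype were combined at random in groups of 2, which gave 2 arrays (MoGene 2.0) per genotype, and every value below has n = 2 per genotype. The labels give a lower number of lysed cells per sample for the Glut1-deficient than for the WT genotype. Which mice went into which pool and whether preparation days differed is not stated, and p-values measure only the spread between the pools. Values are log2 intensities as deposited by the authors, and differences are Glut1-deficient minus WT on that scale.

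DNA replication begins at origins. In G1 the origin recognition complex, Cdc6 and Cdt1 load the MCM helicase, a ring of related ATPases, onto DNA, and in S phase the Cdc7-Dbf4 kinase, Cdc45 and the GINS complex turn it into a moving helicase. Polymerase alpha with primase starts each strand, the clamp loader places the Pcna clamp, and polymerases delta and epsilon extend. Ribonucleotide reductase converts ribonucleotides into deoxynucleotides, and purines and pyrimidines themselves are built de novo or salvaged. Many of these genes are transcribed at the G1/S boundary by E2F factors once RB proteins release them. In the epidermis, division is largely a property of basal keratinocytes.

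The 4 arrays had medians between 4.07 and 4.11. The brighter row of Slc2a1 read 11.01 and 11.01 on Glut1-deficient arrays, against 11.13 and 11.05 on WT arrays, a difference of -0.07 (95% interval -0.30 to 0.15, limma adjusted p = 0.675). In a dimmer Slc2a1 row the difference was -0.52 (limma, adjusted p = 0.247 when every row was tested), and the sources used here do not place either row relative to the deleted exons, so these rows do not check the labels. Krt14, which marks basal keratinocytes, read 12.15 and 12.21 on Glut1-deficient arrays, against 12.56 and 12.54 on WT arrays. Of the keratinocyte markers, 2 of 9 had positive log2 fold changes, and the median was -0.31. The log2 of the summed keratinocyte marker intensities (9 of 10 markers with a row) was 14.00 and 14.09 on Glut1-deficient arrays, against 14.31 and 14.30 on WT arrays. On the same scale fibroblast markers summed to 10.30 and 9.66 on Glut1-deficient arrays, against 9.11 and 9.06 on WT arrays, and 9 of 10 had positive log2 fold changes. Melanocyte markers summed to 9.86 and 9.98 on Glut1-deficient arrays, against 8.82 and 8.48 on WT arrays, and 7 of 8 had positive log2 fold changes. In limma at an adjusted p under 0.05 over all genes, 4 of the 8 (Tyrp1, Dct, Pmel and Mlana) rose, where 1.79% of all genes did. Of the 10 fibroblast markers 1, Twist2, rose, and 0 keratinocyte, endothelial or leukocyte markers passed. Sums of the 6 endothelial markers (6.44 to 6.63) and the 8 leukocyte markers (8.58 to 8.60) lay close together on all arrays. Positive log2 fold changes were found for 3 of 6 and 3 of 8. Of these markers 5 endothelial and 7 leukocyte ones lay below the median level of all genes. RMA intensities have no true zero, so none of these markers reads 0.

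Replication and nucleotide genes were lower on the Glut1-deficient arrays with few exceptions. Of the 57 genes, 54 had negative log2 fold changes, and the median was -0.45, against -0.01 over all 22180 genes. On both Glut1-deficient arrays 49 of the 57 read below both WT arrays, where 27.7% of all genes did so. Cad was the 1 gene that read above both (25.5% of all genes did so), and the groups overlapped for Orc2, Orc6, Dbf4, Pold1, Pole2, Dhodh and Atic. The sizes were moderate: 23 genes had a log2 fold change of -0.5 or lower (3.79% of all genes), and 29 of 57 lay among the lowest 5% of all genes. Only Cdc6 and Rrm2 were lower by more than a factor of 2. These counts describe the members and are not a test of the set.

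Past the threshold of an adjusted p of 0.05 over all genes (limma, Benjamini-Hochberg), 6 of the 57 fell, namely Cdc6, Orc1, Mcm7, Rpa2, Tyms and Ppat, 0 rose and 51 did not pass. Over all genes 2.84% passed by that rule, of which 1.05% of all genes fell and 1.79% rose. At an unadjusted p under 0.05 in limma, 41 were lower and 1, Cad, was higher, where 11.2% of all genes were lower and 11% higher. The count of calls rests on how the variance is estimated from so few arrays. With a variance that varies with intensity, 35 fell and Cad rose (12% of all genes passed under that setting, 5.98% fell and 6.06% rose). With any 1 array left out, which leaves 1 array in a genotype, the median log2 fold change of the members stayed between -0.57 and -0.32. In RNA from whole cultures, fewer cells in S phase and less of these transcripts per cell cannot be told apart. The higher fibroblast and melanocyte and the lower keratinocyte marker sums given above moved with these differences, and their part in them was not tested.

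**Figure D1:**
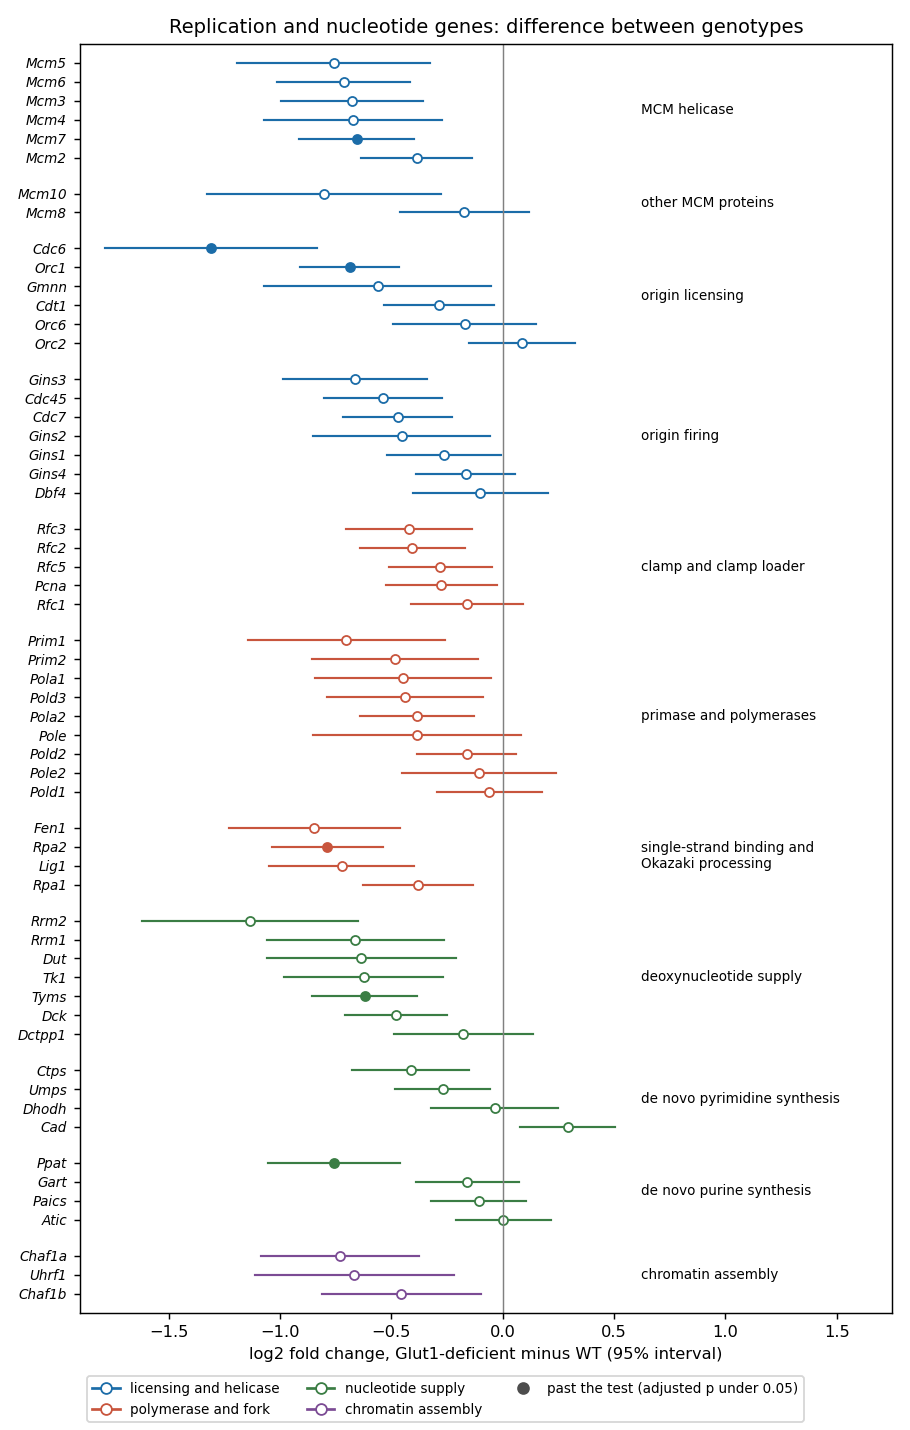
Log2 fold change of each of the 57 genes (Glut1-deficient minus WT, points) with its 95% interval from limma (lines), grouped by role. Filled points passed at an adjusted p under 0.05. All groups lie left of 0 except single genes such as Cad at 0.29 and Orc2 at 0.08.

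Licensing and helicase genes had a median log2 fold change of -0.54, with 3 of 21 fallen, 0 risen and 18 not past the test (1.05% of all genes fell). Cdc6, the ATPase that brings the MCM helicase to the origin recognition complex, was the lowest of all members. It read 7.20 and 7.72 on Glut1-deficient arrays, against 8.75 and 8.80 on WT arrays, so the groups were far apart although the Glut1-deficient arrays differed by more than the WT pair. Cdc6 thus fell by 1.31 (SE 0.185, 2.48-fold lower, limma adjusted p = 0.0419) and had the 54th-lowest log2 fold change of the 22180 genes. Orc1, the largest subunit of the origin recognition complex, read 5.53 and 5.53 on Glut1-deficient arrays, against 6.26 and 6.18 on WT arrays. It fell by 0.69 (SE 0.0858, limma adjusted p = 0.0341) with almost no spread between the Glut1-deficient arrays. The other origin recognition genes on the list did not pass: Orc2 read 8.76 and 8.70 on Glut1-deficient arrays, against 8.70 and 8.59 on WT arrays, a log2 fold change of 0.08 (95% interval -0.15 to 0.32), and Orc6 had one of -0.17. Gmnn, geminin, which holds Cdt1 inactive after S phase begins, read 5.59 and 6.11 on Glut1-deficient arrays, against 6.52 and 6.31 on WT arrays. The difference in Gmnn, -0.56, did not pass, and neither did that in its partner Cdt1, -0.29 (95% interval -0.53 to -0.04).

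The promoters of Cdc6, Orc1 and Mcm7, the licensing genes that fell, are printed from RefSeq (GRCm38.p6), each running from 250 bases before the annotated start site to 50 after it. Capitals mark letters of the E2F type, that is TTTCCCGC, TTTCGCGC, TTTGCCGC or TTTGGCGC or the reverse complement of any of these.
Cdc6, chr11:98907901-98908200, plus strand: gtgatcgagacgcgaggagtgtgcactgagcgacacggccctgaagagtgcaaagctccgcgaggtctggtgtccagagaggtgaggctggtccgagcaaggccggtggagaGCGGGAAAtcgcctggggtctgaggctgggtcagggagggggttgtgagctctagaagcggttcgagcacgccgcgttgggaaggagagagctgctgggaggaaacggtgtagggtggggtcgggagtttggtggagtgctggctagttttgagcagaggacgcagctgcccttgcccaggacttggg
Orc1, chr4:108579204-108579503, plus strand: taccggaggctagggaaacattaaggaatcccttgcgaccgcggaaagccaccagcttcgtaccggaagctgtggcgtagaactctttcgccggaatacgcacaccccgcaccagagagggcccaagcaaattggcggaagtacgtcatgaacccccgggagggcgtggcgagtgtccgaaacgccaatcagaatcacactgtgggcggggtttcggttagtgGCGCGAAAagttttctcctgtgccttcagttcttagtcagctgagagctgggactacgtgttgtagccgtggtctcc
Mcm7, chr5:138171834-138172133, minus strand: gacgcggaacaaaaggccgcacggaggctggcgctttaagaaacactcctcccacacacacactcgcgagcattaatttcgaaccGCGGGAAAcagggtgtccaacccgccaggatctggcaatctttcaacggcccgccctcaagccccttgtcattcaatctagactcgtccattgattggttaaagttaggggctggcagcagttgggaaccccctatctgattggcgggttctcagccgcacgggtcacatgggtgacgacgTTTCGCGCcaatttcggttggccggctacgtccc
The match in Cdc6 begins 138 bases before the start site and that in Orc1 27 bases before it. Mcm7 holds one 165 bases before and one 16 bases after the start site of its more upstream window.

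The 6 subunits of the MCM helicase had similar differences, with log2 fold changes from -0.76 to -0.39 and a median of -0.68. On both Glut1-deficient arrays all 6 were below both WT arrays (27.7% of all genes were). Mcm7 read 8.38 and 8.54 on Glut1-deficient arrays, against 9.15 and 9.08 on WT arrays, and fell by 0.66 (SE 0.1, limma adjusted p = 0.0484). Mcm5 read 8.25 and 8.70 on Glut1-deficient arrays, against 9.26 and 9.21 on WT arrays. Mcm6 read 8.56 and 8.81 on Glut1-deficient arrays, against 9.43 and 9.37 on WT arrays. Mcm7 passed with a smaller difference than Mcm5 (-0.76) and Mcm6 (-0.71), whose adjusted p of 0.0909 and 0.0528 in limma came with a wider gap between the Glut1-deficient arrays. Mcm3 was at 8.19 and 8.47 on Glut1-deficient arrays, against 8.97 and 9.05 on WT arrays, and Mcm4 had a log2 fold change of -0.67. Mcm2 had the smallest difference of the 6, at 8.37 and 8.53 on Glut1-deficient arrays, against 8.85 and 8.82 on WT arrays (-0.39, 95% interval -0.64 to -0.14).

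Of the MCM-named proteins outside the ring, Mcm10, which helps to activate the loaded helicase, read 6.37 and 6.95 on Glut1-deficient arrays, against 7.51 and 7.41 on WT arrays. Its log2 fold change was -0.80 (SE 0.204), and it did not pass (limma adjusted p = 0.112). Mcm8, a helicase of homologous recombination, read 7.41 and 7.63 on Glut1-deficient arrays, against 7.74 and 7.64 on WT arrays (-0.17). Among the 7 origin firing genes 0 passed in limma, and their median was -0.45. At an unadjusted p under 0.05 in limma 5 were lower, where 11.2% of all genes were. The GINS subunit Gins3 read 6.79 and 6.81 on Glut1-deficient arrays, against 7.61 and 7.31 on WT arrays (-0.66). Cdc45, the helicase cofactor, read 6.52 and 6.59 on Glut1-deficient arrays, against 7.18 and 7.01 on WT arrays (-0.54). The kinase gene Cdc7 read 5.78 and 5.92 on Glut1-deficient arrays, against 6.29 and 6.35 on WT arrays (-0.47), so these genes separated the genotypes by more than the gap within either pair. Dbf4, the activating subunit of Cdc7, overlapped between genotypes at 8.23 and 8.40 on Glut1-deficient arrays, against 8.51 and 8.31 on WT arrays (-0.10, 95% interval -0.41 to 0.20). The other GINS genes Gins2, Gins1 and Gins4 had log2 fold changes of -0.45, -0.26 and -0.17.

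**Figure D2:**
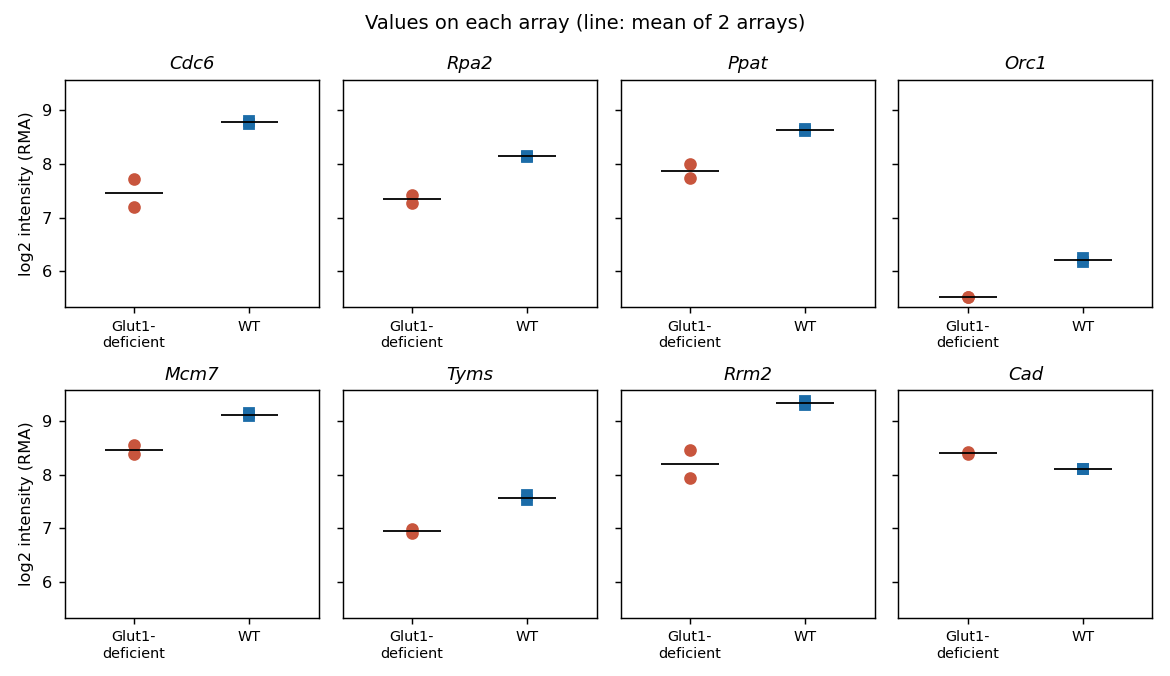
Log2 intensity on each array (points) with the mean of the 2 arrays of a genotype (lines) for the 6 genes that fell and, as a comparison, Rrm2 and Cad. In 7 panels both Glut1-deficient arrays lie below both WT arrays (27.7% of all genes do), and in that of Cad they lie above (25.5%). The 6 genes are shown because they passed, so their separation adds no separate support.

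Polymerase and fork genes all had negative log2 fold changes, with a median of -0.40. Of 18, 1 fell, 0 rose and 17 did not pass (1.05% of all genes fell). Rpa2, a subunit of the protein that coats single-stranded DNA, read 7.27 and 7.43 on Glut1-deficient arrays, against 8.12 and 8.15 on WT arrays. It fell by 0.79 (SE 0.0971, 1.73-fold lower, limma adjusted p = 0.0339), the smallest adjusted p of the 57 genes. Its partner subunit Rpa1 read 8.15 and 8.27 on Glut1-deficient arrays, against 8.64 and 8.55 on WT arrays (-0.38). The enzymes that finish Okazaki fragments just missed the threshold. Fen1, the flap endonuclease, read 5.23 and 5.62 on Glut1-deficient arrays, against 6.28 and 6.26 on WT arrays (-0.85, limma adjusted p = 0.0599). Lig1, the ligase that seals the fragments, read 7.15 and 7.45 on Glut1-deficient arrays, against 8.03 and 8.02 on WT arrays (-0.72, limma adjusted p = 0.0594). The 4 genes of single-strand binding and Okazaki processing had a median of -0.76.

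The primase and polymerase genes were lower by less, with a median of -0.39 and 0 of 9 past the test in limma. At an unadjusted p under 0.05 in limma 5 were lower, where 11.2% of all genes were. Prim1, the catalytic primase subunit, read 7.42 and 7.88 on Glut1-deficient arrays, against 8.42 and 8.29 on WT arrays (-0.70). Prim2, its partner, read 8.06 and 8.43 on Glut1-deficient arrays, against 8.74 and 8.72 on WT arrays (-0.48). Pola1, the catalytic subunit of polymerase alpha, read 6.88 and 7.15 on Glut1-deficient arrays, against 7.61 and 7.31 on WT arrays (-0.45). The genes of polymerases delta and epsilon were mixed. Pold1, the catalytic subunit of polymerase delta, overlapped between genotypes at 7.46 and 7.43 on Glut1-deficient arrays, against 7.57 and 7.44 on WT arrays (-0.06, 95% interval -0.30 to 0.18), whereas the accessory subunit Pold3 had a log2 fold change of -0.44 and Pold2 one of -0.16. Pole and Pole2 of polymerase epsilon were at -0.38 and -0.11, and Pola2 at -0.39.

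The clamp Pcna, a protein widely used to mark cycling cells, did not pass, at 10.28 and 10.43 on Glut1-deficient arrays, against 10.66 and 10.60 on WT arrays (-0.28, 95% interval -0.52 to -0.03). The clamp loader subunit Rfc3 read 6.73 and 6.73 on Glut1-deficient arrays, against 7.27 and 7.04 on WT arrays (-0.42). Rfc2 read 7.68 and 7.80 on Glut1-deficient arrays, against 8.15 and 8.14 on WT arrays (-0.41). Rfc5 read 7.08 and 7.17 on Glut1-deficient arrays, against 7.38 and 7.44 on WT arrays (-0.28), and Rfc1, the largest subunit, read 7.78 and 7.93 on Glut1-deficient arrays, against 8.05 and 7.98 on WT arrays (-0.16). All 5 clamp and clamp loader genes were thus below both WT arrays on both Glut1-deficient arrays (27.7% of all genes were) without any passing the test. In limma there were 0 calls and 4 lower at an unadjusted p under 0.05, where 11.2% of all genes were lower. The promoter of Rpa2, shown because it had the smallest p, holds none of the E2F-type letters above, which were searched as exact strings. The near form gcgggaag is present and was not counted. Capitals mark CCAAT or its reverse complement ATTGG, the box bound by NF-Y.
Rpa2, chr4:132768110-132768409, plus strand: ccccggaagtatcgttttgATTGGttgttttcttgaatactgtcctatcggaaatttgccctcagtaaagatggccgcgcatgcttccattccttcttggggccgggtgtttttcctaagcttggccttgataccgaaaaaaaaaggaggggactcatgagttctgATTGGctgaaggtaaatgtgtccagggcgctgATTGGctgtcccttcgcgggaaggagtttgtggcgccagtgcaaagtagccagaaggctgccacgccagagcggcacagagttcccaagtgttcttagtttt

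The nucleotide supply genes among the members divided by pathway. Of 15, 2 fell, 0 rose and 13 did not pass (1.05% of all genes fell). The 7 genes of deoxynucleotide supply had a median of -0.62, and all 7 were below both WT arrays on both Glut1-deficient arrays (27.7% of all genes were). The 8 genes of de novo purine and pyrimidine synthesis had a median of -0.13, with 5 below both WT arrays and Cad above them (27.7% and 25.5% of all genes). The difference between these groups of genes was not tested. Deoxynucleotide supply genes outside the members did not all follow. Dtymk was at -0.19, and Dctd, Tk2, Dguok and Rrm2b were at 0.24, 0.19, 0.14 and 0.40. None of these passed in limma (2.84% of all genes did).

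Rrm2, the S phase subunit of ribonucleotide reductase, read 7.94 and 8.46 on Glut1-deficient arrays, against 9.37 and 9.30 on WT arrays. The log2 fold change of -1.14 (SE 0.188, 2.2-fold lower) was second in size only to that of Cdc6 and just missed the threshold (limma adjusted p = 0.0539). Its large-subunit partner Rrm1 read 9.53 and 9.86 on Glut1-deficient arrays, against 10.47 and 10.23 on WT arrays (-0.66). Tyms, thymidylate synthase, which makes dTMP from dUMP, read 6.91 and 6.997 on Glut1-deficient arrays, against 7.62 and 7.53 on WT arrays. It fell by 0.62 (SE 0.0914, 1.54-fold lower, limma adjusted p = 0.0452) with a small gap within each pair. Dut, the dUTPase that provides the dUMP, read 7.57 and 8.01 on Glut1-deficient arrays, against 8.48 and 8.37 on WT arrays (-0.63). The salvage kinases were lower as well: Tk1, cytosolic thymidine kinase, had a log2 fold change of -0.62, and Dck, deoxycytidine kinase, one of -0.48 (95% interval -0.71 to -0.25). Dctpp1, which hydrolyses dCTP, had the smallest difference of the 7, at 7.45 and 7.72 on Glut1-deficient arrays, against 7.80 and 7.72 on WT arrays (-0.18). The promoters of Tyms and Rrm2 hold none of the E2F-type letters in this window. Capitals mark CACGTG, the E-box bound by MYC and related factors, in Tyms, and CCAAT in Rrm2.
Tyms, chr5:30073576-30073875, minus strand: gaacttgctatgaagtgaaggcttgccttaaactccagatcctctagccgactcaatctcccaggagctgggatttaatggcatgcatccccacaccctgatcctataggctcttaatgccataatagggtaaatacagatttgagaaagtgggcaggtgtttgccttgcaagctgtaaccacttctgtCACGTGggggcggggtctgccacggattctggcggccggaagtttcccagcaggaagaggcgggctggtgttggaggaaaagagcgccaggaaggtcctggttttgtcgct
Rrm2, chr12:24708004-24708303, plus strand: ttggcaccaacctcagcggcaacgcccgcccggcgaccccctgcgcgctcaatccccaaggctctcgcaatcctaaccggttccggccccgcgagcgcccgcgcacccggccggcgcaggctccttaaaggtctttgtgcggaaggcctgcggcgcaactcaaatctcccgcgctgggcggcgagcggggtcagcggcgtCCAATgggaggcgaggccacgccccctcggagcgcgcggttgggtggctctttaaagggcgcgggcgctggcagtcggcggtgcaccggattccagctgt

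In de novo purine synthesis Ppat stood apart from the later enzymes. Ppat, which catalyses the committed step, read 7.75 and 7.99 on Glut1-deficient arrays, against 8.61 and 8.65 on WT arrays, and fell by 0.76 (SE 0.115, 1.69-fold lower, limma adjusted p = 0.0478). Paics, which acts further along, read 9.38 and 9.40 on Glut1-deficient arrays, against 9.49 and 9.50 on WT arrays (-0.11, 95% interval -0.32 to 0.11). Gart read 8.65 and 8.72 on Glut1-deficient arrays, against 8.80 and 8.89 on WT arrays (-0.16). Atic, which completes IMP, read 9.12 and 9.14 on Glut1-deficient arrays, against 9.13 and 9.13 on WT arrays, a difference of 0.002 (95% interval -0.21 to 0.22). Ppat and Paics are neighbours whose RefSeq start sites on chromosome 5 (GRCm38.p6), at 76951578 on the minus strand and 76951302 on the plus strand, lie 276 bases apart, and the interval of Ppat (-1.05 to -0.46) does not overlap that of Paics, although the difference between them was not tested. The Ppat promoter has 2 E2F-type matches, in capitals, 211 and 158 bases before the start site. The Paics window has none, but it ends at 76951351, short of the Ppat window, so the Ppat matches lie outside it. With these start sites the genes run toward each other. Whether the matches bear on the difference between the genes was not tested.
Ppat, chr5:76951529-76951828, minus strand: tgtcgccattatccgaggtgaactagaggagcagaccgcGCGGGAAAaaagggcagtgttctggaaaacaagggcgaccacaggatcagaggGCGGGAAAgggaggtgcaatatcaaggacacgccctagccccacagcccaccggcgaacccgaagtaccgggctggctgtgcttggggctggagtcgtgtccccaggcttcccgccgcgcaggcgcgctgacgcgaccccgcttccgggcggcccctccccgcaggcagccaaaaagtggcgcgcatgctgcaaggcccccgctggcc

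The pyrimidine genes went both ways within a narrow range. Cad, the protein that carries out the first steps, read 8.41 and 8.38 on Glut1-deficient arrays, against 8.10 and 8.11 on WT arrays. Its log2 fold change of 0.29 (95% interval 0.08 to 0.51) was the highest of the 57 and did not pass (limma adjusted p = 0.139), although it did with a variance that follows intensity. Umps, UMP synthase, read 8.36 and 8.38 on Glut1-deficient arrays, against 8.64 and 8.64 on WT arrays (-0.27). Ctps, CTP synthase, read 9.22 and 9.35 on Glut1-deficient arrays, against 9.77 and 9.63 on WT arrays (-0.41). Dhodh, the mitochondrial step between Cad and Umps, overlapped between genotypes at 6.14 and 5.91 on Glut1-deficient arrays, against 6.05 and 6.08 on WT arrays (-0.04).

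Genes that restore chromatin behind the fork were lower in all 3 cases, and 0 of 3 passed in limma. All 3 were lower at an unadjusted p under 0.05 in limma, where 11.2% of all genes were. Chaf1a, the large subunit of chromatin assembly factor 1, read 6.58 and 6.92 on Glut1-deficient arrays, against 7.51 and 7.45 on WT arrays (-0.73). Uhrf1, which recognises hemimethylated DNA and brings in the maintenance methyltransferase, read 8.09 and 8.55 on Glut1-deficient arrays, against 9.06 and 8.91 on WT arrays (-0.67). Chaf1b read 8.34 and 8.68 on Glut1-deficient arrays, against 8.93 and 9.001 on WT arrays (-0.46). These 3 genes also had the widest gap between the Glut1-deficient arrays of the 4 classes, with a median SD of 0.242 within Glut1-deficient arrays and 0.053 within WT arrays.

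**Figure D3:**
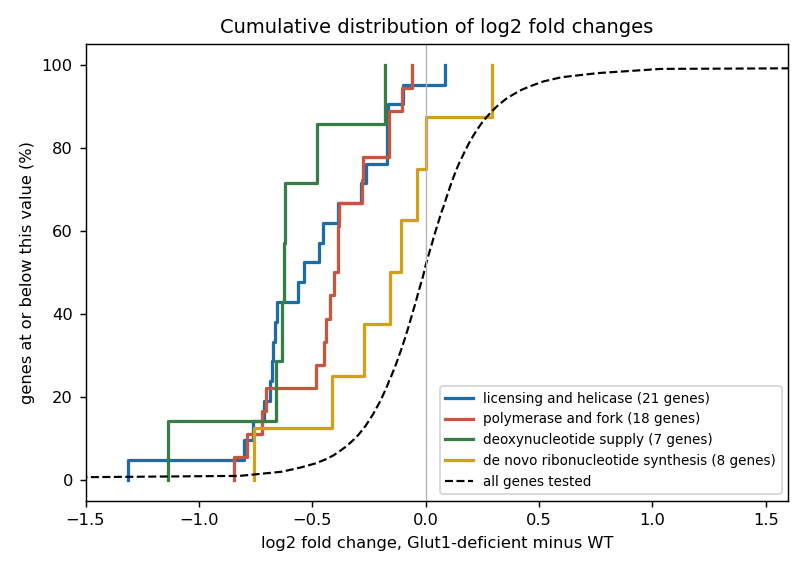
Share of genes (%) at or below each log2 fold change (Glut1-deficient minus WT) for 4 groups of members and, dashed, for all 22180 genes. The deoxynucleotide curve (median -0.62) lies far left of the dashed curve (median -0.01), and the curve of de novo ribonucleotide synthesis (median -0.13) lies between them.

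The Glut1-deficient arrays differed in the size of the shift. Array 1 read lower than array 2 for 50 of the 57 genes, where 49.2% of all genes did so. Relative to the WT mean, array 1 of the Glut1-deficient pair had a median of -0.57 over the members and array 2 one of -0.32. By class the medians on arrays 1 and 2 were -0.65 and -0.40 for licensing and helicase, -0.47 and -0.30 for polymerase and fork, -0.48 and -0.35 for nucleotide supply, and -0.89 and -0.44 for chromatin assembly. The median SD over the members was 0.120 within Glut1-deficient arrays and 0.053 within WT arrays, whereas over all genes these were 0.089 and 0.079. The exceptions among the 21 licensing and helicase genes were Orc1, at 5.53 on both arrays, Orc2, at 8.76 on array 1 and 8.70 on array 2, and Cdt1, at 8.10 on array 1 and 7.98 on array 2. The fibroblast marker sum was also further from WT on Glut1-deficient array 1 (10.30) than on array 2 (9.66), while the melanocyte sum was not (9.86 and 9.98), and the part of either in the members' values was not tested. The summed keratinocyte markers were 14.00 on Glut1-deficient array 1 and 14.09 on array 2.

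**Figure D4:**
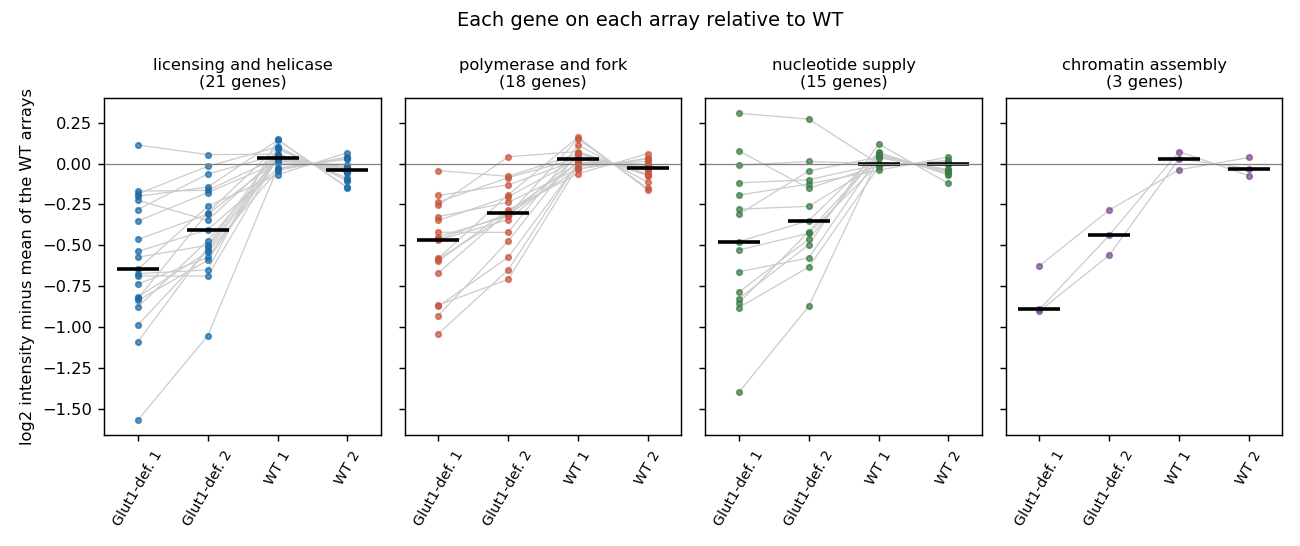
Log2 intensity of each gene on each array minus its mean over the WT arrays, by class. Grey lines join the values of a gene and black bars are medians. Most genes are lowest on Glut1-deficient array 1 (overall median -0.57), intermediate on array 2 (-0.32) and near 0 on both WT arrays.

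Genes of the same pathways outside the 57 were listed by role, and 104 of the 119 listed had a row. Of these 104, 7 fell, 0 rose and 97 did not pass (limma, 1.05% of all genes fell). At an unadjusted p under 0.05 in limma 47 were lower and 5 higher, where 11.2% of all genes were lower and 11% higher. Other replication genes had a median of -0.27, with 4 of 30 fallen. Atad5, which unloads Pcna from finished DNA, read 5.40 and 5.52 on Glut1-deficient arrays, against 6.54 and 6.56 on WT arrays, and fell by 1.09 (SE 0.0915, limma adjusted p = 0.0197). Clspn, the checkpoint adaptor claspin that travels with the fork, fell by 1.07. It read 5.84 and 5.90 on Glut1-deficient arrays, against 7.16 and 6.74 on WT arrays, so here the WT pair had the wider gap. Timeless, a fork protection protein, read 5.77 and 5.95 on Glut1-deficient arrays, against 6.71 and 6.58 on WT arrays, and fell by 0.79. Dna2, a nuclease and helicase, read 5.56 and 5.65 on Glut1-deficient arrays, against 6.36 and 6.31 on WT arrays, and fell by 0.73. All 4 read lower on both Glut1-deficient arrays than on either WT array, where 27.7% of all genes did. They were named because they passed, so this adds no separate support. In the list of replication checkpoint and fork repair genes the median was -0.48, and 2 of 19 fell. Brca1, of homologous recombination, read 6.33 and 6.50 on Glut1-deficient arrays, against 7.34 and 7.34 on WT arrays, and fell by 0.93 (limma adjusted p = 0.027). Msh6, of mismatch repair, read 7.76 and 7.82 on Glut1-deficient arrays, against 8.59 and 8.42 on WT arrays, and fell by 0.71. Brca1 and Msh6 were likewise named because they passed, and their groups did not overlap (27.7% of all genes were below both WT arrays). Exo1, an exonuclease of both processes, was at -0.97 and did not pass.

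The E2F, RB and G1/S kinase list had a median of -0.30, with 1 of 25 fallen, 0 risen and 24 not past the test (1.05% of all genes fell and 1.79% rose). Mybl2, an E2F-induced transcription factor, read 7.97 and 8.12 on Glut1-deficient arrays, against 8.72 and 8.64 on WT arrays, and fell by 0.63 (limma adjusted p = 0.0498). E2f8, a repressive E2F expressed in S phase, and Skp2, which targets CDK inhibitors for degradation, were at -0.83 and -0.82 and did not pass. Myc, named here after its value was seen, read 10.07 and 9.97 on Glut1-deficient arrays, against 9.62 and 9.64 on WT arrays, a difference of 0.39 that did not pass (limma adjusted p = 0.093). Other nucleotide enzymes, mostly of salvage, interconversion and breakdown, had a median of -0.01, equal to that of all genes, and 0 of 30 passed in limma (6 lower and 2 higher at an unadjusted p under 0.05, where 11.2% of all genes were lower and 11% higher). Samhd1, which degrades dNTPs, was at -0.55, Nudt1, which hydrolyses oxidised nucleotides, at -0.43 and Cda, cytidine deaminase, at -0.67. Rrm2b, the p53-inducible counterpart of Rrm2 and likewise named after its value was seen, read 7.11 and 7.31 on Glut1-deficient arrays, against 6.71 and 6.91 on WT arrays. Its log2 fold change was 0.40 (limma adjusted p = 0.152), opposite in sign to the -1.14 of Rrm2.

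RefSeq promoter windows of 300 bases were matched by symbol for 48 of the 57 genes, and those of Dhodh, Gins1, Gins2, Gins4, Gmnn, Mcm4, Pole, Prim2 and Rfc2 were not used here. E2F-type letters were searched on both strands as TTTCCCGC, TTTCGCGC, TTTGCCGC and TTTGGCGC, and overlapping matches on opposite strands were counted separately, as in Mcm5 and Mcm6. They were found in 17 of 57 member windows (29.8%, some genes having several windows) and in 2.26% of all 32851 windows. By gene, 17 of 48 had a match, with 9 of 16 licensing and helicase genes, 6 of 15 polymerase and fork genes, 1 of 14 nucleotide supply genes (Ppat) and 1 of 3 chromatin assembly genes. Of the 6 genes that fell, 4 had a match. The 17 genes with a match had a median log2 fold change of -0.66 and a range of -1.31 to -0.06, and the 31 without had a median of -0.39 and a range of -1.14 to 0.29. None of the 7 deoxynucleotide genes had these letters in the window, and their median was -0.62. CCAAT, on either strand, was in 54.4% of member windows and 37.4% of all windows. CACGTG was in 17.5% of member windows and 7.15% of all windows, and the 10 genes with it had a median of -0.38, against -0.46 for the 38 without. A match describes the letters and does not show binding. Only exact strings were searched, so the lack of a match does not show that a site is absent.

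**Figure D5:**
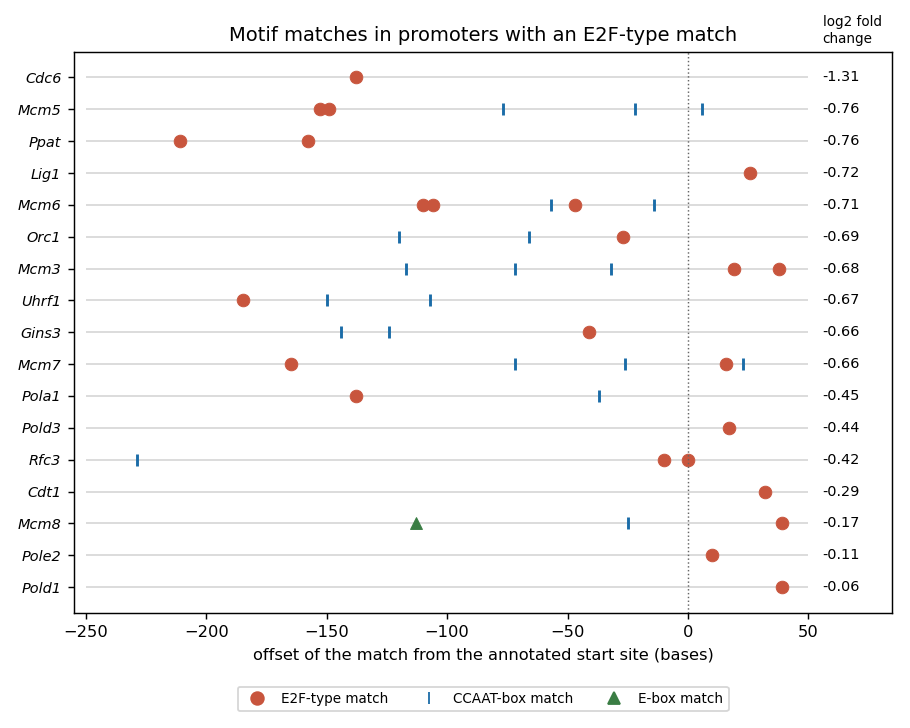
Offset (bases) of motif matches from the annotated start site in the 17 genes with an E2F-type match, ordered by log2 fold change (right). Circles are E2F-type, bars CCAAT and triangles CACGTG matches, and only windows with an E2F-type match are drawn. E2F-type matches lie from 211 bases before the start site to 39 after it. Those after the start site occur in genes from Lig1 at -0.72 to Pold1 at -0.06. Genes with a match before it run from Cdc6 at -1.31 to Rfc3 at -0.42. Some genes have both, and the difference was not tested.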

How the data were processed

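RNA of cultured mouse keratinocytes was measured on 4 MoGene 2.0 arrays, 2 per genotype. The deposited values are log2 intensities, 1 per transcript cluster, which the authors computed by RMA in Affymetrix Expression Console (per the submitters' processing notes). The method equalises the arrays, so differences are relative to other genes; no version, setting or genome build is given in the sources used here. The log2 scale was read from the values. Of 41345 rows, 23521 carry exactly 1 symbol in the platform annotation, 1814 several and 16010 none. Rows with 1 symbol gave 22180 genes, each by its brightest row. Differences (Glut1-deficient minus WT) were fitted over all genes with limma 3.58.1 in R 4.3.3 (lmFit, eBayes, no intensity trend, 2 residual and 2.95 prior degrees of freedom), two-sided, with Benjamini-Hochberg adjustment and a threshold of 0.05. The fit was tested on simulated data whose variance did not depend on intensity. That check does not measure power in these data. An exact permutation test of 2 against 2 arrays allows no two-sided p below 0.333. The members, role groups, pathway and marker lists were chosen with earlier results of these data known, so no list test was made. Values by array are given for genes that passed and, in each role group, for the 3 largest and the smallest differences. Genes of the other pathway lists are named where they passed, with values by array, or had the 3 smallest p of their list. Myc, Rrm2b, Dtymk, Dctd, Tk2 and Dguok were added after their values were seen. Promoters are from RefSeq, GRCm38.p6. The number of arrays limits the precision. Alternatives were other variance models, normalizations, row choices and thresholds, a filter on dim genes, leaving out each array and the replicate number as a block. Figures were drawn with matplotlib 3.10.9.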

Additional observations from a re-analysis of the deposited data

How the results depend on the processing

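The number of calls depended on the setting, and few settings could test the direction of the members. The variance models, the restriction to brighter genes, the test of every row and the replicate block left each log2 fold change unchanged (median -0.45). With any 1 array left out the median lay between -0.57 and -0.32. The 49 members with both Glut1-deficient arrays below both WT arrays could not change sign there. Under the normalizations and the mean of a gene's rows, which could move the median, it lay between -0.46 and -0.44. Of the 57 members Dbf4, Pold1, Pole2, Dhodh and Atic changed sign under at least 1 alternative, none of them a call. Against 6 falls and 0 rises, 35 members fell and 1 rose with an intensity trend, with or without robust estimation. Of all genes 5.98% fell under the trend, and 6.14% fell with robust estimation added. Among genes above the median level 31 members fell and 1 rose, where 10% of those 11090 genes fell. With all rows as separate tests 0 members passed in limma, and 0 of all 22180 genes did by their brightest row. In that setting 36 members were lower at an unadjusted p under 0.05, where 3887 of all 22180 genes were under it in either direction. In the main fit there were 21 falls at a threshold of 0.1, for which no share over all genes was counted. At an unadjusted p under 0.05 there were 41 falls and 1 rise (11.2% of all genes were lower and 11% higher). With the replicate number as a block 0 members and 0 other pathway genes passed in limma, where 37 of all 22180 genes passed and 5 of them fell. In that fit 37 members were lower at an unadjusted p under 0.05, where 4335 of all 22180 genes were under it in either direction. The deviations of same-numbered arrays had a correlation of -0.03 over genes, so the numbers were not shown to pair the arrays. The pathway genes outside the members, 7 of which fell, gave 38 falls with an intensity trend (robust or not) and 30 above the median level. They gave 11 with medians and interquartile ranges made equal (1.32% of all genes fell) and 0 with all rows (limma, 0 of all genes passed). In the main fit they gave 21 at a threshold of 0.1, again with no share over all genes counted. At an unadjusted p under 0.05 they gave 47 (11.2% of all genes were lower). Signal over background was not available per row, so how far dim rows understate a difference could not be examined.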

Other observations

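Some members have further rows on the array that the comparison did not use. A dimmer row of Rrm2 read 3.81 and 3.92 on Glut1-deficient arrays, against 4.38 and 4.29 on WT arrays, a log2 fold change of -0.47 where the brighter row gave -1.14. A dimmer row of Gart read 5.22 and 5.59 on Glut1-deficient arrays, against 5.91 and 6.02 on WT arrays, a log2 fold change of -0.56, while another dim row gave -0.13 and the brightest one -0.16. The dimmer rows of Fen1 and Dut had log2 fold changes of -0.25 and -0.25, against -0.85 and -0.63 for their brighter rows. Dimmer rows of Pole and Rpa1 had log2 fold changes of -0.20 and 0.00, against -0.38 and -0.38 for the brighter ones. Rows whose annotation names a further gene beside a member were dim. The row of Mir25 and Mcm7 read 4.65 to 4.90 over the 4 arrays and gave -0.07. That of Mir93 and Mcm7 read 2.31 to 2.52 and gave -0.04, and that of Tyms-ps and Tyms read 3.07 to 3.39 and gave -0.17. The brighter rows used gave -0.66 for Mcm7 and -0.62 for Tyms. Which transcript the shared rows measure was not examined. None of these rows passed in limma over all rows. By their brightest row 0 of the 22180 genes passed in that fit, so it does not set the further rows apart. Rows of different brightness were not set against each other in level.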
